A study of Mus musculus with 2 samples.

Results

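The nuclear-encoded subunits of the respiratory chain were followed as 84 genes of 43346 in the deposited tables, in 2 total RNA-seq libraries of mouse intestine at embryonic day 14.5. They were chosen by name alone, as the protein-coding nuclear genes whose symbol has the form of a complex I (Nduf), complex II (Sdh), complex III (Uqcr), complex IV (Cox4 to Cox8) or ATP synthase (Atp5) subunit. Of the 21461 protein-coding nuclear genes in the tables, these 84 comprised 35 genes of complex I, 4 of complex II, 8 of complex III, 18 of complex IV and 16 of ATP synthase. The other 3 carry such a name without being a fixed subunit: Ndufa4l2, Cox7a2l and Atp5s. Ndufa4 is named for complex I and was counted in complex IV, where later work places it. The genes lie on 19 chromosomes, 3 of them (Cox7b, Ndufa1 and Ndufb11) on X.

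Complexes I and II pass electrons from NADH and succinate to ubiquinone, complex III passes them on to cytochrome c, and complex IV hands them to oxygen. Complexes I, III and IV pump protons across the inner mitochondrial membrane, and ATP synthase, also called complex V, uses the return of those protons to make ATP. A few subunits of complexes I, III, IV and V are encoded in the mitochondrial genome, and all others come from the nucleus and are imported. Several complex IV subunits exist as a ubiquitous isoform and an isoform known from heart and skeletal muscle, brown fat, lung or testis.

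Both libraries came from B6NCrl embryos and form 1 group with no genetic change or treatment, so the data hold no contrast between conditions. The labels describe each library as the intestine of 1 pup, with 10 ng of RNA longer than 200 nucleotides, and give the sex as pooled male and female. They list the same pup and dam numbers for both with collection days that differ, so embryo, day and technical spread cannot be told apart. Genes held 32938592 estimated counts in replicate 1 and 32371363 in replicate 2, and synthetic spike-in RNA took 9.77% and 10.4% of the TPM. TPM, a unit of transcript abundance, is a share of all transcripts in a library after division by length, so levels of different genes can be set side by side. The labelled tissue showed its markers: all 8 epithelial genes, led by Epcam at 517 and 505 TPM, Cldn7 at 346 and 373 and Krt8 at 326 and 414, and all 6 smooth muscle genes, led by Acta2 at 1633 and 1478. Markers of other tissue set the libraries apart, with 7 exocrine pancreas genes summing to 8.18 TPM in replicate 1 and 973 in replicate 2.

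Respiratory chain genes were among the most abundant transcripts of the tissue. In replicate 1 the 84 genes made up 3.71% of gene TPM, with 543958 estimated counts, and in replicate 2 they made up 3.99%, with 574212. Detection meant reaching 1 TPM in each library, and 80 of 84 met this, against 61.3% of all protein-coding nuclear genes. The median gene of the 84 stood at 338 ± 15.9 TPM (SD of the library medians, n = 2), the median of all protein-coding nuclear genes at 4.88 TPM and that of the detected ones at 18.4 TPM. Of the 84, 72 reached 100 TPM and 74 lay above percentile 90 of protein-coding genes. The 4 genes that were not detected were all complex IV isoforms known from other tissues: Cox6a2, Cox8c, Cox7b2 and Cox8b.

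**Figure D1:**
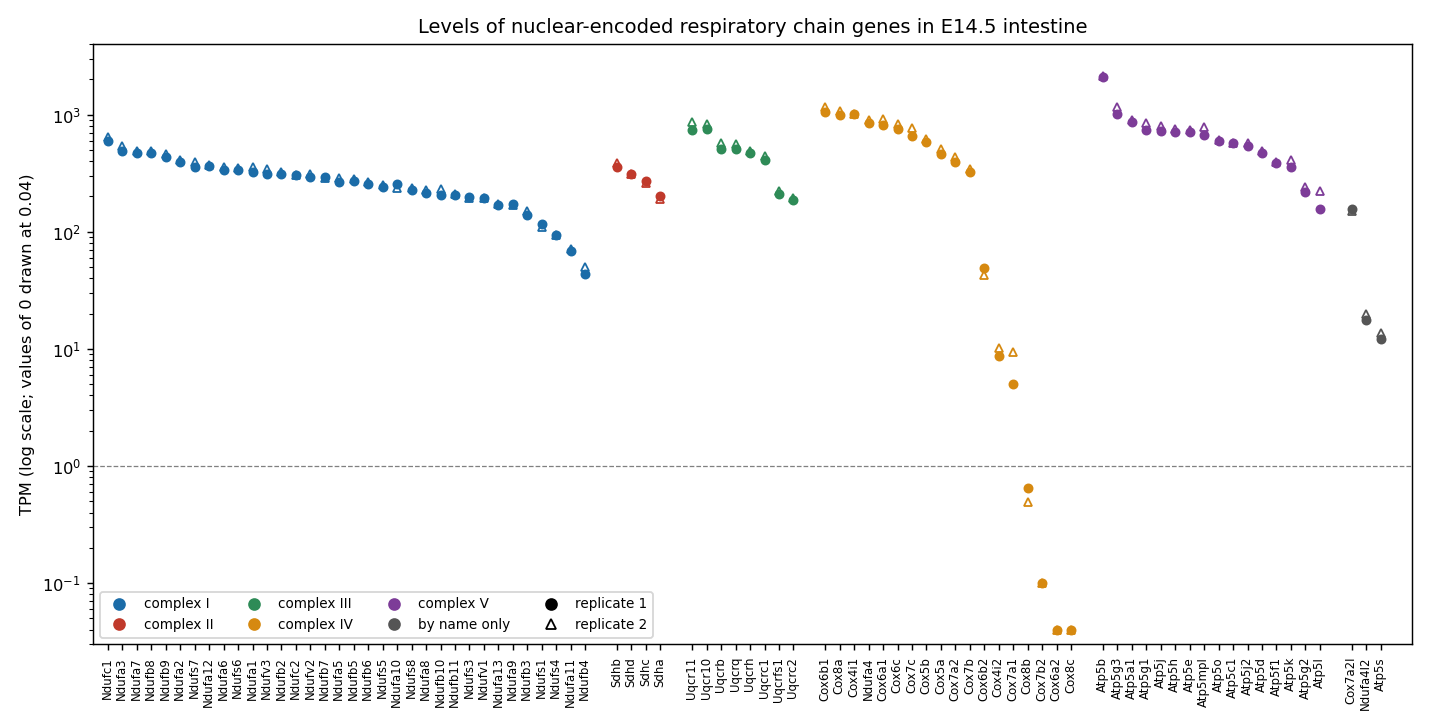
Level of 83 of the 84 genes in TPM on a log scale, grouped by complex and ordered by mean level; filled circles are replicate 1, open triangles replicate 2, the dashed line marks 1 TPM, and 0 is drawn at 0.04. Complex I, II, III and V genes lie at 43.6 TPM or more, while complex IV spans from 0 to 1157 TPM, with its tissue-restricted isoforms drawn beside the ubiquitous ones.

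Complex I genes had a median of 277 ± 10.95 TPM (SD of the library medians, n = 2) and ranged from 46.6 to 621. The 7 core subunits, which carry the flavin and iron-sulphur clusters, had a median of 204 TPM and the 28 accessory subunits one of 283. Ndufv1, the NADH-binding flavoprotein, was at 195 TPM in replicate 1 and 192 in replicate 2. Ndufs1, the large iron-sulphur subunit of the electron-input arm, was lower, at 116 and 110 TPM. Ndufs7, which holds the last iron-sulphur cluster before ubiquinone, was the highest core subunit, at 357 and 390 TPM. The 3 highest genes of the complex were accessory: Ndufc1 at 594 and 648 TPM, Ndufa3 at 491 and 540, and Ndufa7 at 473 and 489. The 2 lowest were Ndufa11, at 68.3 and 71.5 TPM, and Ndufb4, at 43.6 and 49.7 TPM. Ndufa11 is represented there by 1 transcript of 2661 bases, whereas its coding transcripts in the later GENCODE M21 annotation run from 493 to 918 bases, and Ndufb4 has a pseudogene with the same coding sequence. What part either has in these levels was not tested.

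Complex II was the most even of the complexes, with its 4 genes between 195 and 371 TPM. Sdhb, the iron-sulphur subunit, was at 360 and 382 TPM, and the membrane anchors Sdhd at 309 and 312 and Sdhc at 268 and 261. Sdha, the flavoprotein that oxidises succinate, was the lowest of the 4 in both libraries, at 201 and 189 TPM.

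Complex III genes ranged from 190 to 805 TPM, with the small supernumerary subunits highest. Uqcr11 was at 742 and 867 TPM, Uqcr10 at 752 and 829 and Uqcrb at 505 and 567. The 3 core genes had a median of 215 TPM against 536 for the 5 supernumerary ones, and the lowest supernumerary gene, Uqcrh at 478 TPM on average, lay above the highest core gene, Uqcrc1 at 411 and 439 TPM. Uqcrfs1, the Rieske iron-sulphur protein, was at 209 and 222 TPM and the core protein Uqcrc2 at 185 and 194.

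The 11 ubiquitous genes of complex IV had a median of 793 ± 50.3 TPM (SD of the library medians, n = 2), the highest median of any complex when the restricted isoforms are set apart. Cox6b1, a subunit on the intermembrane-space side, led at 1057 and 1157 TPM, followed by Cox8a at 988 and 1064. Cox4i1, the regulatory subunit that binds ATP, was at 1002 TPM and 1004 TPM, the second smallest difference on the log scale between the libraries of the 80 genes with a mean of at least 5 TPM. Cox5a was at 461 and 508 TPM. Cox7b was the lowest ubiquitous gene, at 325 and 344 TPM.

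ATP synthase held the single most abundant member, Atp5b, the catalytic beta subunit, at 2090 and 2117 TPM, above 99.9% of protein-coding nuclear genes. Atp5a1, the alpha subunit of the same head, was at 867 and 897 TPM. The 16 genes of the complex summed to 10792 and 11601 TPM, more than the 9629 and 10054 TPM of the 35 complex I genes. The ring of c subunits is built from 3 genes that encode the same mature protein behind different import signals. Atp5g3 was at 1001 and 1163 TPM and gave 50.9% and 51.5% of the 3 together, Atp5g1 at 745 and 854 TPM gave 37.9% and 37.8%, and Atp5g2 at 220 and 240 TPM gave 11.2% and 10.6%. The order of the 3 was the same in both libraries. Summed, they came to 0.940 and 1.07 times Atp5b. Atp5g1 and Atp5g2 have pseudogene copies with a level of their own, and with the copies counted in, an alternative chosen after seeing the data, the shares were 40.2% and 42.4% for Atp5g3, 37.2% and 36.9% for Atp5g1 and 22.6% and 20.7% for Atp5g2, and the sum 1.19 and 1.29 times Atp5b. The lowest gene of the complex was Atp5l, subunit g of the membrane part, at 156 and 223 TPM, a value that a pseudogene also touches.

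Among the 3 genes that share only a name, Cox7a2l, described as a factor that joins complexes III and IV into supercomplexes, was at 155 and 150 TPM. Whether its product is active in B6NCrl embryos was not tested. Ndufa4l2, a hypoxia-responsive paralogue of Ndufa4, was at 17.5 and 19.98 TPM. Atp5s, known as coupling factor B, was at 12.1 and 13.6 TPM.

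In all 7 isoform sets the ubiquitous gene led in both libraries. The restricted isoforms fell into those with a measurable level and those at a handful of counts or none. A floor of 3 counts in a library was used where a gene had no counts, and folds against it are lower bounds. Intervals quoted for ratios are exact 95% Poisson intervals of the counts and cover counting error only. At 0 counts their lower limits lay below the folds at the floor. These limits were 2859 and 3282 for Cox6a1 over Cox6a2, and 2346 and 2555 for Cox8a over Cox8c.

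Cox6b2, the testis isoform (chr7:4751792-4753094 in GRCm38), was the highest restricted gene, at 48.8 TPM from 457 counts and 42.3 TPM from 406 counts. Cox6b1 was 21.7-fold and 27.3-fold higher, with intervals of 19.8 to 23.8 and 24.8 to 30.2, so Cox6b2 made up 4.41% and 3.53% of the pair. No gene in the annotation overlaps Cox6b2. None of 6 male germ cell markers was detected (0 of 6, summing to 0.59 and 0.90 TPM), with Ddx4 at 0.32 and 0.60 TPM, Dazl at 0.15 and 0.12, Sycp3 at 0 and 0.18, and Tnp1 and Ldhc at 0 in both. The other testis isoforms were near or at 0: Cox7b2 had 1 count in each library, and Cox8c none. Cox7b exceeded Cox7b2 by a ratio of 3248 (interval 600 to 132004) and 3444 (643 to 141542), and Cox8a was at least 2884-fold and 3141-fold higher than Cox8c.

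Cox7a1, the heart and skeletal muscle isoform of subunit VIIa (chr7:30184144-30186078), was at 5.04 TPM from 31 counts and 9.48 TPM from 59 counts. Cox7a2, its ubiquitous partner, stood at 396 and 437 TPM, which was 78.6-fold (55.4 to 116) and 46.1-fold (35.8 to 60.6) higher. Cox6a2, the muscle isoform of subunit VIa, had no counts, and Cox6a1 was at least 3516-fold and 4036-fold higher. Cox8b, known from heart, skeletal muscle and brown fat, had 4 and 3 counts, and Cox8a exceeded it by a ratio of 1520 (589 to 5539) and 2172 (750 to 10626). Skeletal and heart muscle markers were detected for 4 of 13 genes, summing to 48.8 and 54.3 TPM, with Actc1 at 28.5 and 31.0 TPM, Tnnt2 at 8.78 and 10.3, Mylpf at 7.28 and 8.64, and Myod1 at 0.05 and 0. Of 4 brown fat genes, 1 was detected, Prdm16 at 10.9 and 15.1 TPM, with Ucp1 at 0.08 in both libraries and Cidea at 0.04 and 0.12. Whether the muscle transcripts have a part in the Cox7a1 level was not tested.

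Cox4i2, the oxygen-responsive isoform best known from lung, was at 8.64 TPM from 126 counts and 10.2 TPM from 151 counts, and Cox4i1 was 116-fold (97.4 to 139) and 98.1-fold (83.7 to 116) higher. Ndufa4l2, with 350 and 404 counts, was the lesser partner of Ndufa4, which stood at 853 and 905 TPM and was 48.8-fold (43.9 to 54.3) and 45.3-fold (41.1 to 50.1) higher. Both genes are also known from pericytes of small vessels. All 6 pericyte markers were detected, summing to 125 and 127 TPM, led by Kcnj8 at 45.5 and 48.1, Pdgfrb at 31.7 and 31.5 and Rgs5 at 16.3 and 16.4. In bulk tissue, fewer cells of a type and less RNA per cell cannot be told apart.

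**Figure D2:**
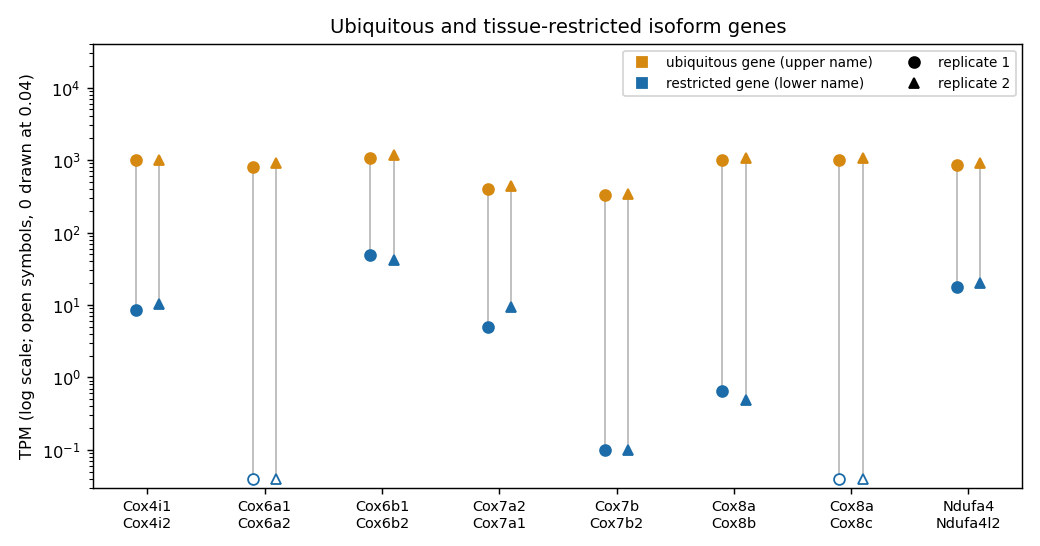
TPM on a log scale of the ubiquitous (orange) and restricted (blue) gene of each isoform set, circles for replicate 1 and triangles for replicate 2; Cox8a is drawn with each of its 2 restricted partners. The ubiquitous gene is above 300 TPM in every set, and the restricted genes range from 0 counts (open symbols, drawn at 0.04) for Cox6a2 and Cox8c to Cox6b2 at 48.8 and 42.3 TPM.

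The sequence before the start of these genes is shown for the pairs whose restricted gene had the highest level and the largest difference between libraries. Each is the 120 bases directly before the outermost start annotated in GENCODE M21, read in the gene's direction from the RefSeq promoter table (GRCm38.p6), with the letters of the searched motifs in capitals. For Cox6b1 the region is chr7:30626152-30626271 on the minus strand, for Cox6b2 chr7:4753095-4753214 on the minus strand, for Cox7a2 chr9:79759879-79759998 on the minus strand and for Cox7a1 chr7:30184024-30184143 on the plus strand.
Cox6b1: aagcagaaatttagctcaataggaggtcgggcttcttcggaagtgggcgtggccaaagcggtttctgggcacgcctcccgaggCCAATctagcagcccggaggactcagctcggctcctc
Cox6b2: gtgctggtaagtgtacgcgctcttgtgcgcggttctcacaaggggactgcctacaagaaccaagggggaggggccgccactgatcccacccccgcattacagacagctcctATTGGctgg
Cox7a2: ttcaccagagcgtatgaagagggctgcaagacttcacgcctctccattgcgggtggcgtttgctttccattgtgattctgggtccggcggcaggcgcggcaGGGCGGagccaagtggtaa
Cox7a1: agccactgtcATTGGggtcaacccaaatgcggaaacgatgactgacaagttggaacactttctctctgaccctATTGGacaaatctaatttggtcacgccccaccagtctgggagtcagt
The capitals are CCAAT or its reverse complement ATTGG in Cox6b1, Cox6b2 and Cox7a1, and GGGCGG, a GC box, in Cox7a2. GC content was 60% before Cox6b1 and before Cox7a2, 60.8% before Cox6b2 and 49.2% before Cox7a1.

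Of the 84 genes, 68 had a promoter in the RefSeq table, 2 of them under a newer symbol (Atp5f1 as Atp5pb and Atp5s as Dmac2l). Windows of 300 bases, 250 before and 50 after the start, were searched on both strands for fixed letters, and a match is a description of the sequence and not evidence of binding. The site letters of NRF1, a transcription factor known for respiratory genes, were searched as GCGCA, then any base, then GCGC. This motif was in 17 of 68 windows, 25%, against 11.2% of 10286 detected protein-coding genes. AAGATGGC, a YY1 motif, was in 14.7% against 5.12%. CCGGAAG, the core of ETS family sites, was in 23.5% against 19.5%, CCAAT in 44.1% against 42.9%, and TATAAA in 10.3% against 8.75%. GGGCGG was in 41.2% of the members' windows against 69.0%. Overlaps between motifs were kept, and no test was made of these shares. The 3 highest members with the NRF1 letters are shown with 10 bases on each side and the motif in capitals, in the gene's direction: Atp5g3 at chr2:73911295-73911324, Cox6a1 at chr5:115349101-115349130 and Atp5h at chr11:115420041-115420070, all on the minus strand.
Atp5g3: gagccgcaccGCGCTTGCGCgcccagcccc
Cox6a1: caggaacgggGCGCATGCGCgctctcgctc
Atp5h: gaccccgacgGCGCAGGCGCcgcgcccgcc
The letters of Atp5g3 match on the opposite strand and begin 12 bases after the RefSeq start, while those of Cox6a1 and Atp5h begin 162 and 141 bases before it.

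Many respiratory chain genes have processed pseudogenes, copies made from their mRNA, and the tables give some of these a level of their own. Of the 84 genes, 29 had a pseudogene copy in the tables, sharing at least 90% identity over at least 150 bases, with 57 copies in all. Of these copies, 15 reached 1 TPM in both libraries. For 5 genes the copies held at least 10% of the gene's own TPM in both libraries: Ndufb4, Atp5l, Atp5g2, Cox7c and Atp5g1. How reads were divided between gene and copy was not tested. Where a copy is identical over its length, the sequence of a read from that stretch cannot tell the gene from the copy, so the level of each is uncertain and the sum of both is given.

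Ndufb4, an accessory subunit of complex I, was at 43.6 and 49.7 TPM, and its copy Ndufb4c on chromosome 15 at 263 and 294 TPM. All 390 bases of the copy are identical to the coding sequence of Ndufb4, and together they came to 307 and 344 TPM, a level above the complex I median of 277 TPM. Both begin with the same 60 coding bases, in lower case with no differing letter.
Ndufb4 and Ndufb4c: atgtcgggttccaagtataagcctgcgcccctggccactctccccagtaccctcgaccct
Atp5l was at 156 and 223 TPM, while its 7 copies held 714 and 810 TPM, nearly all of it at Gm10221 (chr5:24581554-24581862, 711 and 807 TPM). The 309 bases of Gm10221 in GENCODE M21 are identical to the gene's. Its deposited length is 422 bases, and the remainder was not compared. Atp5l and its copies summed to 870 and 1033 TPM. Cox7c was at 656 and 768 TPM and its 4 copies at 453 and 496, with Gm12338 (192 identical bases, 448 and 491 TPM) the largest, and the sum was 1109 and 1264 TPM.

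Atp5g2 was at 220 and 240 TPM and Gm10175 (chr7:23946646-23947290, 645 identical bases) at 342 and 327, so that the copies exceeded the gene and the sum came to 562 and 567 TPM. Gm10039 (chr11:100361716-100362126), a copy of Atp5g1 at 178 and 153 TPM, differs from the gene by 1 base of 411, so only reads over that base can tell the 2 apart within this stretch. The stretch of 57 bases that holds the differing base is shown for gene and copy, with that base in capitals.
Atp5g1: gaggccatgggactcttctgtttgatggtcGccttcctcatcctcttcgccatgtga
Gm10039: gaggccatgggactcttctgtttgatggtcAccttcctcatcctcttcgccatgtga
Counting copies with their gene, the c ring genes stood at 1001 and 1163 TPM for Atp5g3, 927 and 1010 for Atp5g1 and 562 and 567 for Atp5g2, and the order of the 3 was the same as without the copies. No copy of Atp5g3 in the tables met the limits.

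**Figure D3:**
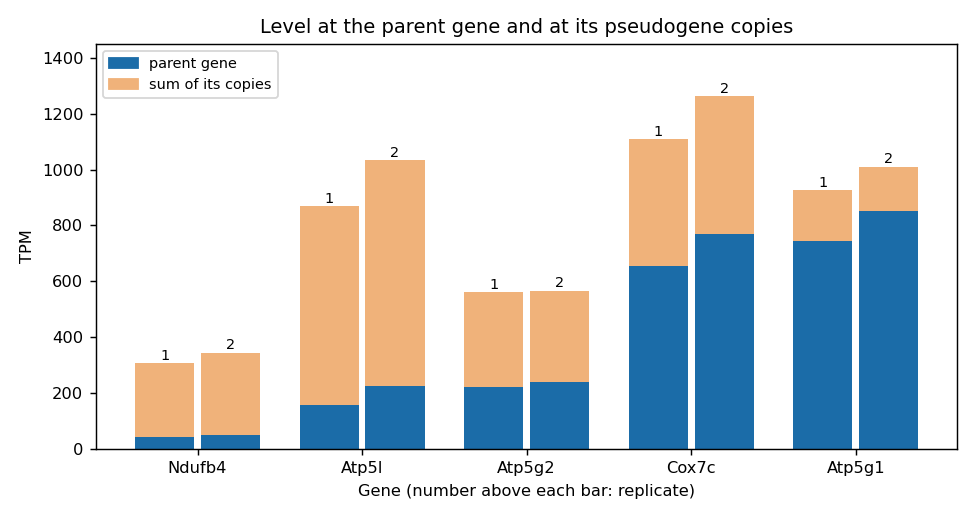
TPM of the 5 genes whose pseudogene copies hold at least 10% of the gene's own level, stacked as the gene (blue) and the sum of its copies (orange), with the replicate number above each bar. For Ndufb4, Atp5l and Atp5g2 the copies exceed the gene in both libraries, and for Cox7c and Atp5g1 the gene exceeds its copies.

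The share of each gene held by its transcripts was taken from the transcript tables. Of the 84 genes, 28 have 1 transcript there and 56 have more, and the leading transcript was the same in both libraries for all 56. It held at least 80% of the gene in 38 and under 80% in both libraries in 18. In 7 the leading transcript is not annotated as protein-coding. Ndufa10, an accessory subunit of complex I, was the most divided, with a retained-intron transcript in the lead at 31.7% and 31.8%. Atp5j, the F6 subunit of the peripheral stalk, was led by a retained-intron transcript of 526 bases at 60.1% and 63.5%, and Cox5b by a processed transcript of 362 bases at 55.9% and 56.0%. Atp5f1, subunit b, was led by a transcript annotated for nonsense-mediated decay at 64.4% and 65.7%, and Ndufb4 and Cox7b by retained-intron transcripts at 66.0% and 67.5% and at 46.5% and 49.9%. Ndufa5, whose leading transcript passes 80%, is the remaining gene led by a non-coding annotation. The total RNA library and the split of reads among overlapping transcripts both enter these shares, and their parts were not tested.

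Protein-coding transcripts led the other 12 divided genes, of which 11 are given here. The shares were 68.8% and 67.3% in Atp5b, 75.7% and 76.2% in Atp5g3, 65.8% and 66.7% in Atp5h, 48.2% and 47.6% in Ndufb5, and 49.7% and 51.1% in Ndufc1. They were 51.8% and 54.9% in Ndufs1, 39.3% and 36% in Ndufv1, and 78.3% and 79.0% in Ndufv2. Sdhc gave 66.2% and 66.3%, Uqcrq 69.8% and 68.6%, and the testis isoform Cox6b2 43.5% and 45.1%. In each of these 11 the share of the leading transcript differed between libraries by less than 4 percentage points. Transcripts below the lead could differ more. In Ndufv1 the coding transcripts next in share went from 32.95% to 21.25% and from 16.06% to 27.23%.

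Replicate differences of the members were small. Calling a gene different took 3 things: a mean of 5 TPM or more, a gap of 1 or more in log2(TPM + 1), and deposited 95% intervals lying apart. None of the 80 members with a mean of at least 5 TPM was called, against 0.495% of all genes at that level, and no p-value was computed, as the data are 2 libraries of 1 group. The largest log2 differences, replicate 2 minus replicate 1, were 0.80 for Cox7a1, 0.51 for Atp5l and 0.23 for Atp5mpl, a small proteolipid of ATP synthase at 663 and 780 TPM. The value for Atp5l depends on how reads were divided with its copies. Atp5l was at 156 and 223 TPM alone and at 870 and 1033 TPM with the copies counted in. The deposited interval of Cox7a1 ran from 3.35 to 6.85 TPM in replicate 1 and from 7.11 to 11.8 in replicate 2. The lowest were -0.20 for Cox6b2 and -0.10 for Ndufa10 (253 and 236 TPM), and the smallest in size were Ndufs4 at 93.1 TPM in both, Cox4i1 and Atp5f1 at 389 and 391.

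Small differences leaned one way in TPM as deposited, but not under spike-in scaling: 66 of 80 members were higher in replicate 2, against 36.8% of protein-coding nuclear genes at that level. With spike-in scaling 33 of 80 were higher, against 17.6% of those genes. Neither share is matched on length. As deposited, 76.8% of the protein-coding nuclear genes outside the members were higher under 500 bases, and 34.1% from 1200 bases. The deposited intervals did not overlap for 37 of 80, all higher in replicate 2 (background 7.43%), and for 0 lower (background 18.5%). These counts stood at 6 of 8 for complex III, 11 of 16 for ATP synthase, 10 of 14 for complex IV, 9 of 35 for complex I, 1 of 4 for complex II and 0 of 3 for the genes that share only a name. The backgrounds are not matched on counts, and intervals narrow as counts rise. Atp5a1, with 46146 and 47089 counts, had intervals apart at a log2 difference of 0.05. Cox4i2, with 126 and 151 counts, had overlapping intervals at 0.22. What part counts have in these shares was not tested. The median log2 difference was 0.08 for the members and -0.05 for all protein-coding nuclear genes. With spike-in scaling, which moves all genes of replicate 2 by -0.10 on the log2 scale, the medians were -0.02 and -0.15, and 7 members were higher and 19 lower without overlap (backgrounds 2.88% and 40.7%). The median of the members lay 0.13 above that of protein-coding nuclear genes on the log2 scale as deposited. Each scaling (TMM, DESeq2 size factors and spike-ins) moves all genes of replicate 2 by the same amount. This gap is therefore nearly fixed under them, and they are no check of it. A difference in total RNA per spike-in and a difference in composition cannot be told apart here.

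Cell type markers differed between the libraries in both directions. Erythroid genes summed to 8914 TPM in replicate 1 and 13015 in replicate 2, with 5 of 6 higher without overlapping intervals and Hba-a2 at 4152 and 5929 TPM, and the 7 pancreas genes were higher in replicate 2 (Pnliprp1 at 1.67 and 355 TPM, Ctrb1 at 0 and 300, Cpa1 at 2.03 and 130). Epithelial genes summed to 1801 and 1951 TPM, smooth muscle genes to 3404 and 3187, mesenchymal genes to 2602 and 2480 and enteric neuron genes to 191 and 173 (Tubb3 at 80.8 and 77.1). The 4 mesenchymal genes were split, with Col3a1 (1673 and 1496 TPM) and Pdgfra (47 and 38.2) lower in replicate 2 and Col1a1 (663 and 708) and Dcn (220 and 237) higher. What part these cell type markers have in the members' difference was not tested. The members were also short, with a median of 686 bases against 2434 for protein-coding nuclear genes at that level. Among members under 500 bases 11 of 13 were higher without overlap (background 37.0%), from 500 to 700 bases 16 of 29 (25.3%), from 700 to 1200 bases 7 of 22 (10.5%), and from 1200 bases 3 of 16 (6.21%). Across the 80 members, which share both libraries and their depth, length and log2 difference had a Pearson's r of -0.46, and across 10676 protein-coding nuclear genes -0.12, given as descriptions. In TPM as deposited, 3 of 7 core subunits of complex I were higher and 4 lower, and 23 of 28 accessory subunits were higher and 5 lower. The share higher over protein-coding nuclear genes of all lengths was 36.8%. Outside the members it was 76.8% under 500 bases, 69.1% from 500 to 700, 45.5% from 700 to 1200 and 34.1% from 1200. In the same length classes 13 of 13, 26 of 29, 17 of 22 and 10 of 16 members were higher. Median length was 1043 bases for the core and 642 for the accessory subunits, and what part length has was not tested.

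**Figure D4:**
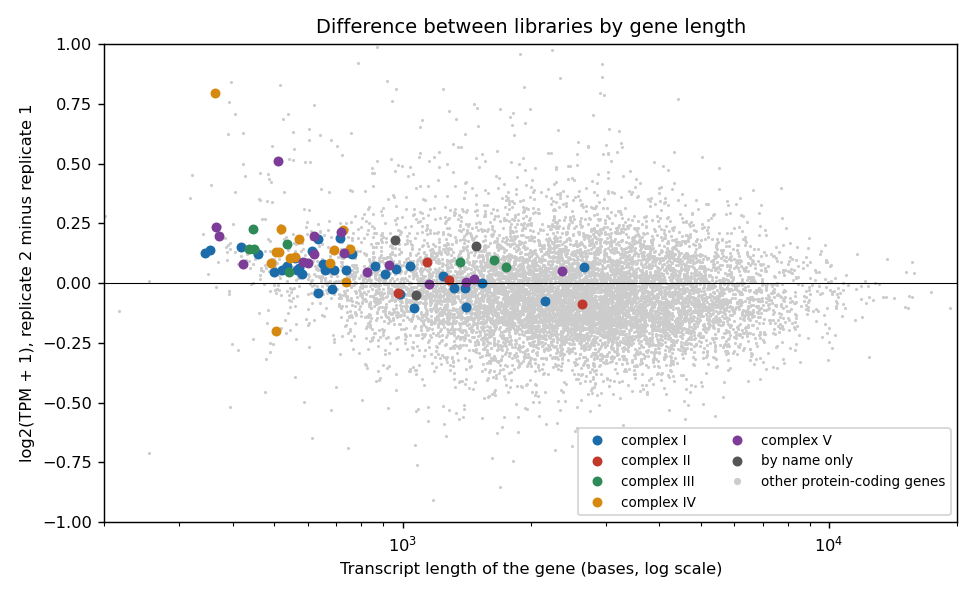
Difference in log2(TPM + 1), replicate 2 minus replicate 1, against transcript length in bases on a log scale for the 80 members (coloured by complex) and 10596 other protein-coding genes (grey), of which 48 lie outside the axes. Most short members lie above 0 in TPM as deposited, a position that drops by 0.10 under spike-in scaling, where 33 of 80 remain above 0 against 17.6% of protein-coding nuclear genes.

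Genes that work with these subunits spanned a wide range of levels. All 13 mitochondrially encoded subunits were detected, summing to 27708 and 26109 TPM with a median of 1599, led by mt-Atp6 at 6927 and 6422 TPM, mt-Atp8 at 5223 and 4843 and mt-Cytb at 3180 and 2979. This order is not settled by the deposited intervals. Those of mt-Atp6 ran from 4414 to 7300 and from 4449 to 7091 TPM. They hold those of mt-Atp8, 5008 to 5183 and 4643 to 4812. For mt-Co3, at 1703 and 1974 TPM, they ran from 1076 to 7684 and from 1145 to 7217. Of the 13 mitochondrially encoded subunits, 0 were higher and 6 lower in replicate 2 without overlap in TPM as deposited, where the shares over protein-coding nuclear genes were 7.43% and 18.5%. Whether the mitochondrial and nuclear genes differ in this was not tested. Subunits and carriers outside the naming rule were detected in 9 of 10 cases, led by Usmg5 at 1033 and 1190 TPM, the ATPase inhibitor Atpif1 at 1131 and 1073, and Ndufab1, the acyl carrier protein of complex I, at 569 and 604. The testis cytochrome Cyct was at 0.08 and 0 TPM.

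Assembly factors, which help build the complexes without staying in them, had a median of 29.8 TPM over 50 genes, of which 49 were detected. Uqcc2, for complex III, was the highest at 264 and 277 TPM, followed by Coa3 at 205 and 207 and Cox17 at 139 and 146, both for complex IV. For complex I the highest was Ndufaf8 at 76.4 and 81.9 TPM, for complex II Sdhaf4 at 58.3 and 59.5, and for ATP synthase Tmem242 at 106 and 97.2. Of the 48 factors with a mean of at least 5 TPM, 0 were higher and 5 lower in replicate 2 without overlap, where the shares over protein-coding nuclear genes were 7.43% and 18.5%. Enzymes of the tricarboxylic acid cycle were all detected (13 of 13) with a median of 120 TPM, led by Mdh2 at 469 and 499 TPM, Cs, the citrate synthase, at 194 and 200, and Idh3g at 191 and 195. Regulators of mitochondrial biogenesis had a median of 14.2 TPM, with 18 of 19 detected and Tfam, the factor that packages mitochondrial DNA, at 65.0 and 56.8, Nrf1 at 49.0 and 41.6 and Pprc1 at 37.9 and 39.2.

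Gene models bear on some of these values. Of the 84 genes, 37 overlap another annotated gene, and whether counting used strand is not given in the sources used here, so reads of genes on opposite strands may not be separated. The deposited TPM lay outside its own interval for 20 members in replicate 1 and 23 in replicate 2, since the intervals are centred on another estimate of TPM, the posterior mean.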

How the data were processed

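The data are 2 libraries of 1 group, so no test between groups, batch comparison or p-value was made. Each library was quantified separately on mm10 with GENCODE M4, per the file headers and deposited notes. Which quantification software made the values, and whether it used strand, is not given in the sources used here. The authors deposited expected counts, TPM and FPKM for each gene and transcript, and the percent of a gene held by each transcript. Interval bounds of TPM (taken here as scores) and posterior mean TPM were deposited by the authors beside them. TPM is scaled over all features, spike-ins included. Feature lengths in bases are those deposited by the authors.

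Names, biotypes and coordinates came from GENCODE M21 (GRCm38, the same assembly as mm10), where 42462 of 43346 gene identifiers matched. The name pattern matches 85 protein-coding genes of GENCODE M21, of which 84 were in the tables, and 12 genes of other biotypes, which are not members. The members and lists were chosen with earlier results of these data known.

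A gene at 1 TPM or more in each library was called detected. A replicate difference needed a mean TPM of at least 5, a log2(TPM + 1) difference of at least 1 and 95% intervals that do not overlap. The rule was tested on simulated Poisson counts, with Poisson intervals in place of the deposited ones. The members' counts spread more than Poisson counts, so the simulation cannot show how the rule behaves on these libraries. The floor was 3 counts per library. Intervals and floors cover counting error only, since amplified reads are not independent molecules. The median detected member had 4991 and 5213 estimated counts. The chi-square of the members' counts between libraries was 28.7 per degree of freedom, and the 2 were not merged as copies of one library. Copies were pseudogenes aligned with blastn 2.17.0 at 90% identity or more over at least 150 bases and 50% of the copy. Promoters are from RefSeq (GRCm38.p6).

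Named genes were all isoform set members, the 3 highest and 2 lowest of each complex, members under 1 TPM, the 3 largest and 3 smallest differences, divided transcripts (under 80%), 11 catalytic or electron-carrying subunits and the 3 highest of each list; any others were chosen with their values known. Values of 1 gene under this rule are not reported here. The alternatives comprised further detection thresholds, rescaled TPM, posterior mean, FPKM, a pseudocount of 0.1, no filter, TMM factors (edgeR 4.0.16) and size factors (DESeq2 1.42.0) on rounded expected counts, spike-in scaling, and each library alone. Python 3.11.15 and R 4.3.3 were used.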

Additional observations from a re-analysis of the deposited data

How the results depend on the processing

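The 80 detected members were the count under every detection threshold, scale and estimate tried (80 to 80 with either library alone). Under every alternative 0 members passed the replicate difference rule, against 0.268% to 0.53% of all genes. A count of 0 is thus near the share of all genes. The 7 isoform sets were led by the ubiquitous gene in all (7 to 7 with either library alone). Spike-in scaling turned the median log2 difference of the members from 0.08 to -0.0185 and gave 33 of 80 higher in replicate 2 (17.6% of protein-coding nuclear genes), with 7 higher (2.88%) and 19 lower (40.7%) without overlapping intervals. TMM factors gave 55 higher (12.5%) and DESeq2 size factors 48 (11.1%), with 0 lower under both (10.9% and 12.6%). Without the 5 members whose copies hold at least 10% of their TPM, 34 of 75 were higher (7.43%) and 0 lower (18.5%). These interval counts and the counts of members higher under each scaling were chosen after seeing the data. Rescaling TPM to nuclear protein-coding genes raised the median level from 338 to 443 TPM, and to 6.38 TPM for all such genes. With either library alone the median was 325 to 347 TPM. Differences between libraries have no value with 1 library left out. No paired analysis was possible because the data form a single group. Depth limits the isoforms with few counts: Cox7a1 rests on 31 and 59 counts.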
